A study of Homo sapiens with 6 samples.

Results

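In BT549 cells, 10 genes were followed that ERK signalling induces, most of which feed back on the same pathway: the phosphatases DUSP4, DUSP5 and DUSP6, the inhibitors SPRY1, SPRY2, SPRY4 and SPRED1, the transcription factors ETV4 and ETV5, and PHLDA1. They were chosen by name, with earlier results of these data known, and all 10 were found among the 58735 genes of the count table. BT549 is a long-established cell line from a human breast tumour of the basal-like type. The control group was treated with DMSO for 48 h, and the other group with 200 nM AS1842856, a small molecule that binds FOXO1, for the same 48 h. The dose is that of the sample labels, and the study's text states a higher one. The study used the comparison to look for genes that depend on FOXO1. Each group held 3 RNA-Seq libraries (replicates A, B and C), which the study calls biological replicates, of this 1 cell line at 1 time. The DMSO libraries held 22050288, 15289500 and 18580205 counts and the AS1842856 libraries 16643243, 22981832 and 17888328 counts.

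Growth factor receptors activate RAS, which activates the kinases RAF, MEK and ERK in turn, and ERK then switches on a set of genes. Some of these genes encode proteins that dampen the pathway: dual-specificity phosphatases remove phosphate from ERK itself, while Sprouty and SPRED proteins act between the receptor and RAF. Because transcription of these genes follows ERK activity, their RNAs are widely read as a measure of pathway output, but an RNA level is not a measurement of ERK phosphorylation, and none was analysed here.

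All 10 genes rose with AS1842856 and none fell, by edgeR's quasi-likelihood test with a threshold of 0.05 on the Benjamini-Hochberg adjusted p. Of all 14338 genes tested, 56.0% were called, 27.6% higher and 28.4% lower, so a call alone is common in this comparison. In all 10 the 3 AS1842856 libraries lay above the 3 DMSO libraries, which was so for 29.5% of the genes tested, while 30.3% had them all below and 59.9% had no overlap in either direction. The median log2 fold change of the 10 genes was 0.69, against 0.0 over all genes tested. PHLDA1, SPRY4 and DUSP4 rose by at least 1 on the log2 scale, as did 4.27% of the genes tested, and 6.33% fell by as much. The lowest count of any of the 10 genes in any library was 159 (ETV4 in DMSO replicate B), so every one passed the filter on low counts in both groups. In bulk RNA a larger share of expressing cells cannot be told apart from more RNA per cell.

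DUSP4, an inducible nuclear phosphatase of ERK and other MAP kinases (ENSG00000120875, GRCh38 chromosome 8 from 29333064 to 29350668, minus strand), was at 18.9, 21.7 and 19.4 CPM in the DMSO libraries (replicates A, B and C) and at 52.0, 54.2 and 53.9 CPM with AS1842856. CPM here are TMM-scaled counts relative to library size. The groups were far apart, and DUSP4 rose 2.68-fold, by 1.42 on the log2 scale (SE 0.07, edgeR adjusted p = 9.30e-54). DUSP6, the cytoplasmic phosphatase that is specific for ERK (ENSG00000139318, chromosome 12 from 89347232 to 89353271, minus strand), was at 11.6, 14.8 and 11.1 CPM in DMSO and at 18.1, 17.3 and 17.1 CPM with AS1842856. Its highest DMSO library, replicate B, lay below every treated library, and the rise was 0.50 on the log2 scale (SE 0.10, edgeR adjusted p = 6.81e-06). DUSP5, a nuclear phosphatase specific for ERK (ENSG00000138166, chromosome 10 from 110497838 to 110511544, plus strand), was at 14.7, 14.9 and 15.3 CPM in DMSO and at 16.7, 21.0 and 16.7 CPM with AS1842856. The groups were apart by little, with AS1842856 replicate B above the other treated libraries, and the rise was 0.28 (SE 0.10, edgeR adjusted p = 0.00785). Without AS1842856 replicate B the rise was 0.15 (adjusted p = 0.261), and DESeq2 gave an adjusted p of 0.0754 with all libraries.

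Of the Sprouty genes, SPRY4 had the largest log2 fold change. SPRY4, an inhibitor of RAS and RAF activation (ENSG00000187678, chromosome 5 from 142310427 to 142326455, minus strand), was at 46.5, 48.9 and 50.7 CPM in DMSO and at 158, 154 and 149 CPM with AS1842856. That was a 3.16-fold rise, of 1.66 on the log2 scale (SE 0.05, edgeR adjusted p = 6.04e-96). SPRY2, another inhibitor of receptor signalling (ENSG00000136158, chromosome 13 from 80335976 to 80340951, minus strand), was at 43.4, 42.5 and 46.4 CPM in DMSO and at 67.1, 73.1 and 75.1 CPM with AS1842856. SPRY1, which acts in the same way on receptor signalling (ENSG00000164056, chromosome 4 from 123396795 to 123403760, plus strand), was at 12.6, 13.9 and 13.1 CPM in DMSO and at 20.6, 23.1 and 19.5 CPM with AS1842856. Both had every treated library above every DMSO library, SPRY2 rising by 0.70 (SE 0.06, adjusted p = 1.58e-27) and SPRY1 by 0.68 (SE 0.10, adjusted p = 5.30e-11, both edgeR). SPRED1, which brings neurofibromin to RAS at the membrane (ENSG00000166068, chromosome 15 from 38252326 to 38357249, plus strand), was at 28.5, 30.9 and 28.7 CPM in DMSO and at 47.3, 46.5 and 43.5 CPM with AS1842856. It rose by 0.65 on the log2 scale (SE 0.07, edgeR adjusted p = 2.95e-18), with no overlap between groups.

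ETV4 and ETV5 are ETS transcription factors of the PEA3 group, which are transcribed when ERK is active and in turn drive growth factor response genes. ETV4 (ENSG00000175832, chromosome 17 from 43527844 to 43579620, minus strand) was at 9.84, 10.4 and 10.5 CPM in DMSO and at 20.3, 20.1 and 19.1 CPM with AS1842856. It rose 1.94-fold, by 0.96 on the log2 scale (SE 0.10, edgeR adjusted p = 3.12e-17), and the groups were wide apart. ETV5 (ENSG00000244405, chromosome 3 from 186046308 to 186110318, minus strand) was at 39.0, 37.0 and 36.8 CPM in DMSO and at 42.1, 45.2 and 44.3 CPM with AS1842856. Its rise was the smallest of the 10, 0.22 (SE 0.06, edgeR adjusted p = 0.00141), and 27.4% of the genes tested had a larger one. PHLDA1, a pleckstrin homology-like protein that growth factors induce (ENSG00000139289, chromosome 12 from 76025447 to 76033932, minus strand), was at 196, 213 and 213 CPM in DMSO and at 678, 680.2 and 667 CPM with AS1842856. PHLDA1 had the largest rise of the 10, 3.26-fold or 1.70 on the log2 scale (SE 0.04, edgeR adjusted p = 2.41e-123), and 1.92% of the genes tested had a larger one. Between these extremes, 2.02% of the genes tested had a larger rise than SPRY4, 2.57% than DUSP4, 4.63% than ETV4, 7.15% than SPRY2, 7.48% than SPRY1, 8.08% than SPRED1, 11.6% than DUSP6 and 22.2% than DUSP5.

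**Figure D1:**
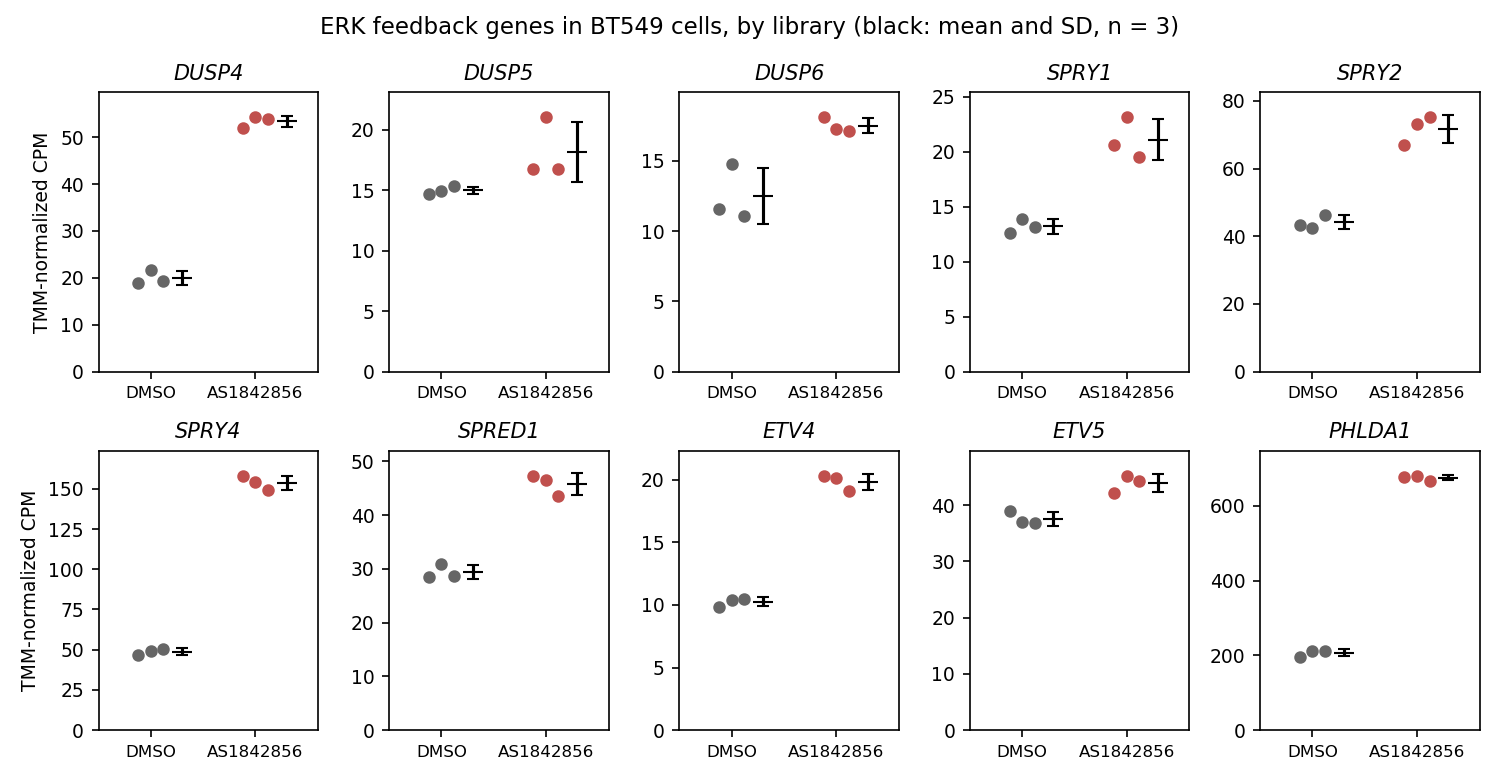
Each panel plots 1 gene, with TMM-normalized CPM on the vertical axis from 0, a point for each library (3 DMSO in grey, 3 AS1842856 in red) and the group mean with its SD in black. Every treated library lay above every DMSO library in all 10 panels, by a wide margin in DUSP4, SPRY4 and PHLDA1 and by a small one in DUSP5 and ETV5.

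The use of strand in counting is not given in the sources used here, so reads of genes that overlap on opposite strands cannot be told apart. ETV4 overlaps DHX8, a helicase gene on the opposite strand, over 68 exonic bases, and DHX8 had a mean of 965 counts per library against 285 for ETV4. DHX8 fell by 0.31 on the log2 scale (edgeR adjusted p = 4.51e-07), the opposite direction to ETV4. DUSP6 shares 1875 exonic bases with the antisense gene AC024909.2, whose counts came to 1.18% of those of DUSP6. The other genes that overlap one of the 10 had at most 0.304% of its counts.

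Levels of different genes were compared on the FPKM that the authors deposited, which are divided by gene length. The order depends on the length used for each gene. The annotated exons of SPRY4 cover 6565 bases and its principal transcript 2379, against 3038 and 2708 for SPRY2. In counts not divided by length, SPRY4 was above SPRY2 in every DMSO library. In DMSO the order was PHLDA1 (25.5 ± 1.14 FPKM, SD, n = 3), SPRY2 (14.4 ± 0.686), SPRY4 (7.37 ± 0.315), ETV5 (6.45 ± 0.215), DUSP5 (5.70 ± 0.122), SPRED1 (3.53 ± 0.154), SPRY1 (3.31 ± 0.167), ETV4 (2.82 ± 0.093), DUSP4 (2.74 ± 0.205) and DUSP6 (2.68 ± 0.424). Among neighbours in this order, the libraries of SPRED1 and SPRY1, of ETV4 and DUSP4, and of DUSP4 and DUSP6 overlapped. With AS1842856 the order was PHLDA1 (83.2 ± 0.934 FPKM, SD, n = 3), SPRY2 (23.5 ± 1.33), SPRY4 (23.3 ± 0.702), ETV5 (7.51 ± 0.268), DUSP4 (7.31 ± 0.161), DUSP5 (6.88 ± 0.946), SPRED1 (5.51 ± 0.248), ETV4 (5.47 ± 0.181), SPRY1 (5.29 ± 0.471) and DUSP6 (3.75 ± 0.122). On these FPKM SPRY4 thus came to overlap SPRY2, and DUSP4 moved from place 9 to place 5 and overlapped both ETV5 above it and DUSP5 below it. SPRED1 overlapped ETV4 there, and ETV4 overlapped SPRY1. PHLDA1 was above 86.7% of the genes tested in DMSO and above 96.9% with AS1842856, whereas DUSP6 was above 38.9% and 46.0%.

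Close relatives were then set against each other within each library, as the log2 ratio of their counts, which does not depend on how libraries are scaled. The ratio of DUSP4 to DUSP5 was 0.41 ± 0.113 in DMSO and 1.57 ± 0.173 with AS1842856 (SD, n = 3), a difference of 1.15. DUSP4 also gained on DUSP6, by 0.92, while DUSP5 against DUSP6 moved by -0.23 with overlapping libraries. SPRY4 gained on both other Sprouty genes: the ratio of SPRY1 to SPRY4 moved by -0.99 and that of SPRY2 to SPRY4 by -0.96. SPRY1 to SPRY2 was -1.74 ± 0.114 in DMSO and -1.77 ± 0.155 with AS1842856, a difference of -0.03 that lay within the spread. ETV4 gained on ETV5, from -1.88 ± 0.0956 to -1.14 ± 0.082, a difference of 0.73. The 5 ratios of DUSP4 to DUSP5, DUSP4 to DUSP6, SPRY1 to SPRY4, SPRY2 to SPRY4 and ETV4 to ETV5 had no overlap between groups and the two-sided exact permutation p = 0.1, the smallest that 3 against 3 libraries allow (0.14 after Benjamini-Hochberg adjustment over 7 pairs). The exact permutation p was 0.2 for DUSP5 to DUSP6 and 0.8 for SPRY1 to SPRY2 (adjusted 0.233 and 0.8).

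The families to which the genes belong were summed in FPKM, so the sums and shares also depend on the length used for each gene. Sprouty RNA, over 4 genes, went from 25.3 ± 0.896 to 52.3 ± 0.900 FPKM (SD, n = 3), a ratio of 2.06. SPRY4 held 29.1% ± 0.466 of that sum in DMSO and 44.5% ± 1.78 with AS1842856, and SPRY2 held 57.0% ± 1.25 and 44.9% ± 2.13. SPRY3 held at most 1.0% of the sum in every library and was not called (log2 fold change 0.13, edgeR adjusted p = 0.697). The sum of the 3 SPRED genes had a ratio of 1.16, and its make-up moved from SPRED3 towards SPRED1: SPRED1 held 33.9% ± 1.08 and then 45.7% ± 0.419, SPRED3 23.2% ± 2.43 and then 14.1% ± 0.590. SPRED3 fell by 0.50 on the log2 scale (edgeR adjusted p = 3.09e-05), and SPRED2 was not called (0.12, adjusted p = 0.226), except without DMSO replicate B (0.22, adjusted p = 0.036). The 3 PEA3 factors had a ratio of 1.6 in sum. ETV1, the third PEA3 gene, rose by 1.5 (SE 0.08, edgeR adjusted p = 2.58e-48), against 0.96 for ETV4 and 0.22 for ETV5, and its share went from 13.9% ± 0.379 to 24.6% ± 0.632, while ETV5 went from 59.9% ± 0.944 to 43.6% ± 0.904.

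The MAP kinase phosphatases as a family were lower in sum, while DUSP4, DUSP5 and DUSP6 rose. Summed over 10 genes they were at 95.8 ± 4.34 FPKM in DMSO and at 82.0 ± 1.04 FPKM with AS1842856 (SD, n = 3), a ratio of 0.856 with no overlap between groups. DUSP1 alone went from 51.9 ± 4.1 to 29.7 ± 0.912 FPKM, a larger drop than that of the sum. The other genes of the family together were therefore higher with AS1842856. DUSP1, an immediate early phosphatase that prefers p38 and JNK, held 54.1% ± 1.87 of the sum in DMSO and 36.2% ± 0.781 with AS1842856, whereas DUSP4 went from 2.86% ± 0.271 to 8.91% ± 0.304. Of the 7 phosphatases outside the 10 genes, 3 rose, 3 fell and 1 was not called, with a median log2 fold change of 0.27. DUSP2 (0.71), DUSP8 (0.68) and DUSP16 (0.37) rose, and DUSP10 (-1.92), DUSP1 (-0.81) and DUSP7 (-0.22) fell. DUSP10, a phosphatase of p38 and JNK, went from 16.3 ± 2.26 to 4.25 ± 0.537 CPM (SD, n = 3). DUSP9 was at 1.05 ± 0.0768 and 1.26 ± 0.083 CPM and not called (0.27, edgeR adjusted p = 0.534).

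**Figure D2:**
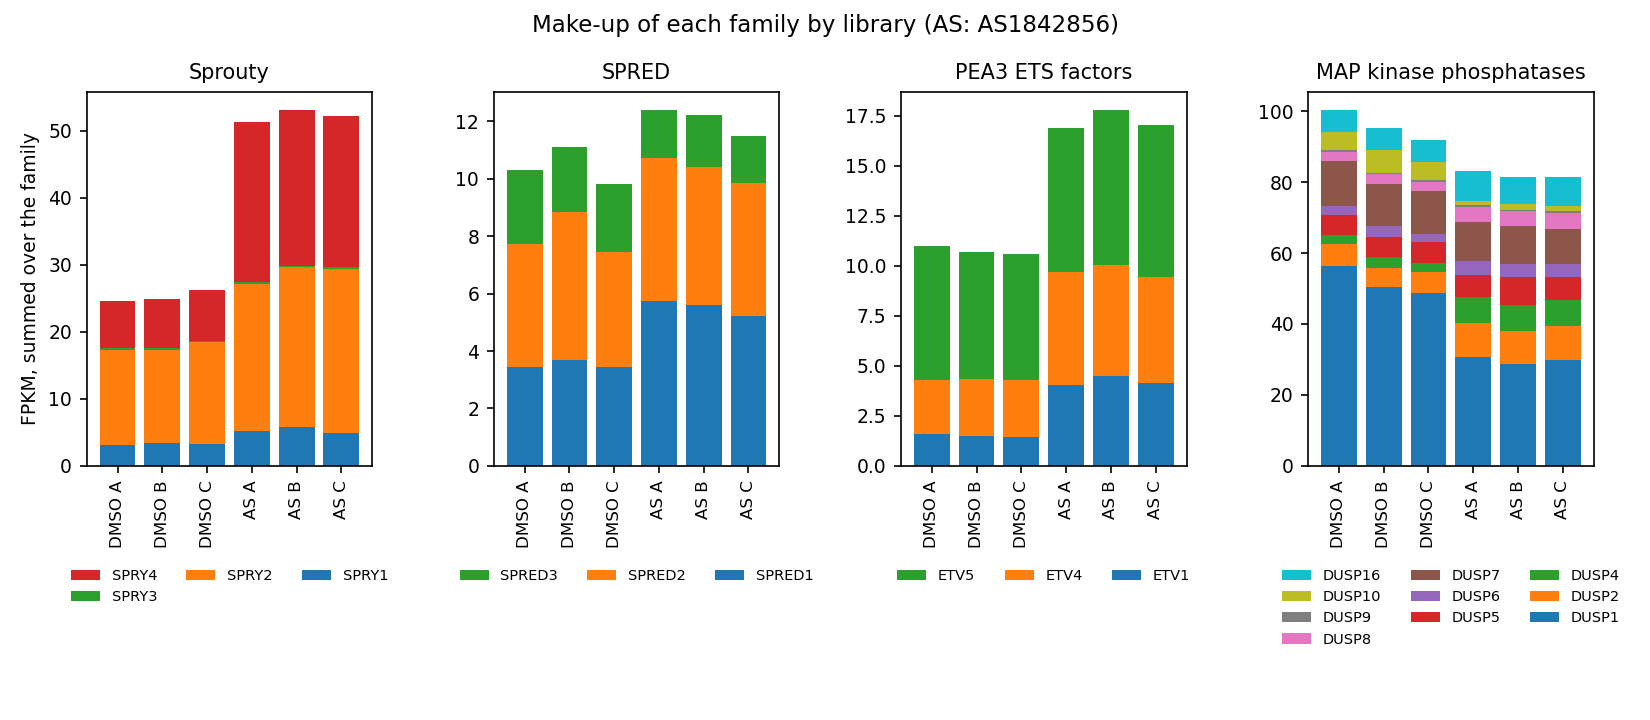
Stacked bars give the deposited FPKM of each gene, summed by family, in each of the 6 libraries (3 DMSO, then 3 AS1842856). Sprouty bars with AS1842856 were about 2.06 times the DMSO bars, with a larger SPRY4 part, and the phosphatase bars were lower, with a smaller DUSP1 part and a larger DUSP4 part.

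The rest of the pathway was taken from lists of genes grouped by role, 87 genes without the 10, of which 86 were tested. Of these, 31 rose (36.0%, against 27.6% of all genes tested), 33 fell (38.4%, against 28.4%) and 22 were not called, with a median log2 fold change of 0.02. The counts given for single lists are to be read beside the same 27.6% and 28.4%. Among 12 other feedback inhibitors, 2 rose and 6 fell, with a median of -0.13. LRIG3 (0.27) and CBL (0.18), a ubiquitin ligase of receptors, rose, LRIG3 without a call when AS1842856 replicate C was left out (0.20, edgeR adjusted p = 0.0876). LRIG1, which promotes the breakdown of ERBB receptors, fell by 2.19 on the log2 scale, from 40.1 ± 1.55 to 8.78 ± 0.525 CPM (SD, n = 3, edgeR adjusted p = 5.40e-67). RASA1, a GTPase-activating protein that turns RAS off, fell by 1.40, and ERRFI1, an inhibitor of EGFR and the most abundant gene of this list, by 0.28.

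Kinases, adaptors and scaffolds of the cascade went both ways. Of 26 genes, 11 rose, 7 fell and 8 were not called, with a median log2 fold change of 0.07. The MEK genes MAP2K1 and MAP2K2 rose by 0.22 and 0.14. MAPK3, which encodes ERK1, fell by 0.58 on the log2 scale (SE 0.10, edgeR adjusted p = 2.19e-08), from 20.5 ± 2.15 to 13.6 ± 0.735 CPM (SD, n = 3). MKNK1 (0.26), a kinase that ERK activates, and PTPN11 (0.25), the phosphatase SHP2, rose, and the RAS relative RRAS2 (-1.03) and the adaptor SHC1 (-0.60) fell. Without DMSO replicate C, MKNK1 was not called (0.19, edgeR adjusted p = 0.0637). KSR2, a scaffold for RAF and MEK, had 6, 2 and 14 counts in DMSO and 90, 134 and 102 counts with AS1842856, and it rose by 3.83 (SE 0.29, edgeR adjusted p = 2.45e-29). Its size is uncertain at such low DMSO counts: with each library left out the rise ran from 3.50 (without DMSO replicate B) to 4.68 (without DMSO replicate C). In limma on log2(FPKM + 1) with no filter, the rise of KSR2 was 0.36 (adjusted p = 0.000571). There 1 was added to mean levels of 0.021 FPKM in DMSO and 0.308 FPKM with AS1842856.

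Other genes that ERK is known to induce split both ways. Of 18 tested, 8 rose, 6 fell and 4 were not called, with a median log2 fold change of 0.02. IER3, an immediate early survival gene, rose by 2.03 on the log2 scale, from 61.2 ± 2.36 to 249.9 ± 26.0 CPM (SD, n = 3). CCND1, which encodes cyclin D1, rose by 1.68, from 201 ± 10.8 to 644 ± 11.3 CPM. TRIB1, a pseudokinase, rose by 1.36, from 9.84 ± 1.14 to 25.4 ± 0.748 CPM. EGR1 (1.18), FOS (0.97) and the EGFR ligand HBEGF (0.64) also rose. EGR3 rose by 2.06 from very low counts, 9, 4 and 2 in DMSO and 23, 29 and 13 with AS1842856, and the size is uncertain (1.68 without DMSO replicate C, 2.62 without DMSO replicate A). In limma on log2(FPKM + 1) with no filter, the rise of EGR3 was 0.22 (adjusted p = 0.0263), at means of 0.0531 FPKM in DMSO and 0.231 FPKM with AS1842856. The ephrin receptors EPHA4 (-3.30) and EPHA2 (-1.44), MYC (-1.33) and FOSL1 (-0.42), an AP-1 subunit, fell. MYC was at 193, 172 and 187 CPM in DMSO and at 72.9, 73.7 and 73.6 CPM with AS1842856, with every treated library below every DMSO library.

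Among 11 ETS and CIC factors, which read the pathway at promoters, 6 rose, 3 fell and 2 were not called, with a median log2 fold change of 0.15. ETV1 (1.5), ATXN1 (1.38), a partner of the repressor CIC, and ELK3 (0.47) rose, and ETS1 (-0.53), ETS2 (-0.30) and ELK4 (-0.23) fell, ELK4 without a call in limma on log2(FPKM + 1) with no filter (-0.18, adjusted p = 0.0871). CIC, the repressor of ETV4, ETV5 and DUSP6 that ERK inactivates, was at 193 ± 0.597 CPM in DMSO and 202 ± 4.86 CPM with AS1842856 (SD, n = 3) and was not called (0.07, edgeR adjusted p = 0.137). Of 12 receptor tyrosine kinases tested of 13, 1 rose and 8 fell, with a median of -0.61. FGFR2 rose by 0.87, and AXL (-1.65), ERBB2 (-0.90), INSR (-0.78) and EGFR (-0.55) fell. On FPKM with limma, 4 or 5 receptors were called lower in place of 8.

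**Figure D3:**
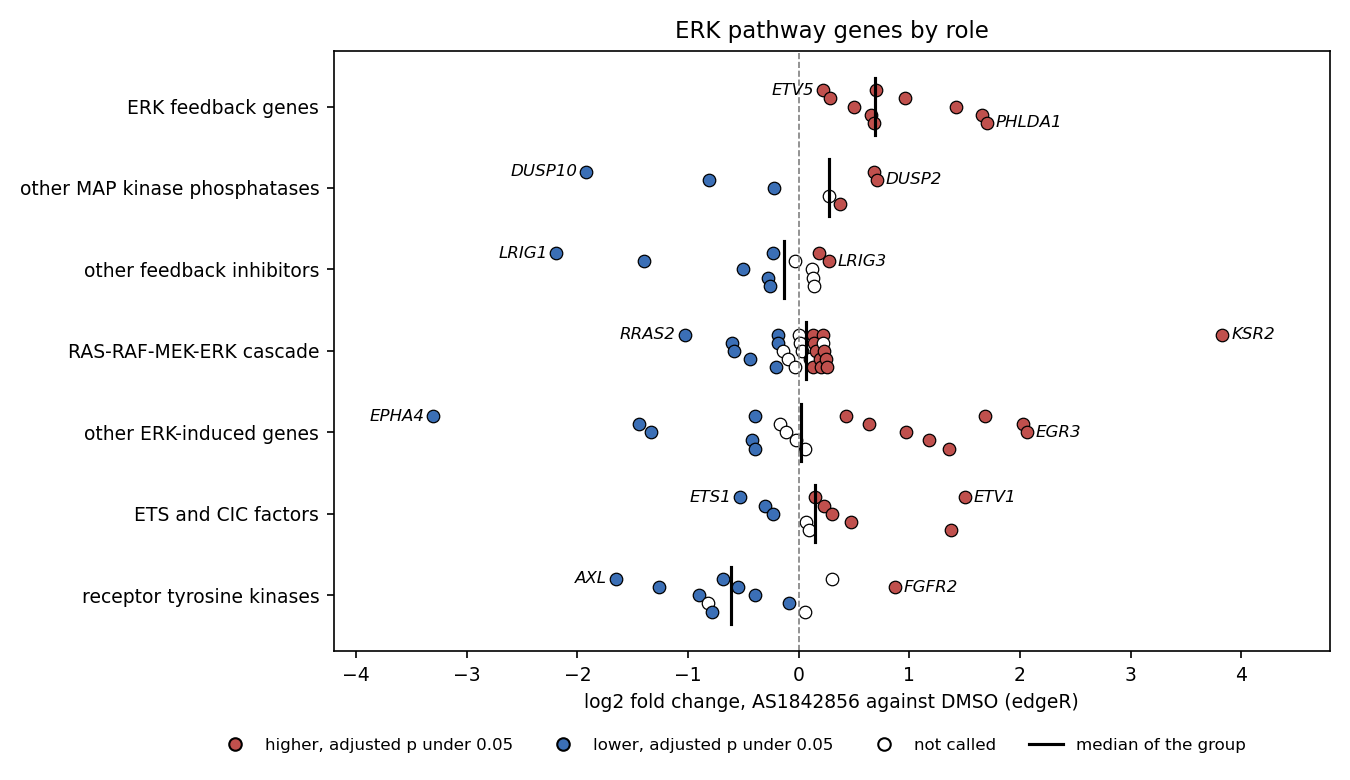
Points are genes placed by their log2 fold change with AS1842856 against DMSO (horizontal axis), in 1 row per role, filled where the edgeR adjusted p was under 0.05 (red higher, blue lower) and open where it was not, with the median of each row as a black bar. The 10 feedback genes lie to the right of 0, from 0.22 (ETV5) to 1.70 (PHLDA1), whereas every other row has called genes on both sides.

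Sequence was looked at in the RefSeq promoter table (GRCh38.p14), which gave 9 windows for 6 of the 10 genes: DUSP6, SPRY1, SPRY2, SPRY4, SPRED1 and PHLDA1. The 250 bases before each start were searched on both strands for the letters CCGGAA, a longer form of the GGAA core that ETS factors bind, and 3 of the 9 windows, of 3 genes, held them, against 14.5% of all 35116 windows in the table. The windows of these genes were 41.2% to 78.4% G or C, and those with a match 68.0% to 70.4%. The share over all windows was not matched for base content or counted by gene, and the difference was not tested. The sites are shown because ETV4 and ETV5 are ETS factors. ETS factors as a group went both ways: ETV4 and ETV5 rose, while ETS1 fell from 48.1 ± 0.695 to 33.3 ± 0.183 FPKM and ETS2 from 45.5 ± 0.814 to 36.9 ± 0.349 FPKM (SD, n = 3), both at higher levels than ETV4 and ETV5. Others at higher levels than ETV4 and ETV5 rose: ERF (34.4 ± 2.2 to 40.5 ± 1.91 FPKM), ELK1 (24.1 ± 0.576 to 26.6 ± 0.645) and ELK3 (12.1 ± 0.477 to 16.7 ± 0.885). Each site is given with 12 bases on either side, 5′ to 3′ on the strand of the gene, with the match in capitals. In SPRY1 the match lies 67 to 62 bases before the start of the second window (chr4:123398307-123398336, plus strand). In SPRY2 it lies 142 to 137 bases before the start of the first window (chr13:80341251-80341280, minus strand). In PHLDA1 the reverse complement, TTCCGG, lies 89 to 84 bases before the start (chr12:76031848-76031877, minus strand).
SPRY1: tgccctccgcagCCGGAAgggggccgcggg
SPRY2: tccctgcctcctCCGGAAaggcgagggcgc
PHLDA1: gaggagaggagtTTCCGGggctcgggtccg
A match of letters is a description and was not tested as a binding site, and the windows without these letters may hold the shorter core GGAA, which was not counted.

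The same 9 windows were searched for 5 other motifs. None held the CIC motif (TGAATGAA or TGAATGGA, in 2.19% of all windows), the AP-1 motif TGACTCA (4.2%), the CRE TGACGTCA (1.65%), the forkhead motif GTAAACA that FOXO factors bind (2.98%) or the E-box CACGTG (6.34%). This says only that these letters are not in these windows. In the 3′ UTR, where short-lived RNAs often carry AU-rich elements, TATTTAT occurred in 6 of the 10 genes (60.0%) and in 33.7% of 12069 genes tested with an annotated 3′ UTR. The median UTR was longer in the 10 genes, 1628 against 1138 bases, and the shorter word ATTTA had like medians, 1.62 and 1.69 per kb. This search was chosen after the values were seen.

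The cell line label was compared with marker genes. All 8 mesenchymal basal-like markers were expressed, VIM highest (1322 ± 52.0 CPM in DMSO and 1046 ± 18.3 CPM with AS1842856, SD, n = 3). Of these, 3 rose (FN1 1.13, SNAI2 0.77, ZEB1 0.50) and 5 fell (CAV1 -0.59, SPARC -0.47, CD44 -0.45, VIM -0.34, CDH2 -0.19). Of 8 luminal and epithelial markers, CDH1, EPCAM, ESR1 and PGR were below 0.5 CPM in every library and not tested. The other 4 were expressed, so the luminal list was absent only in part. In mean CPM, KRT8 fell from 40.9 to 4.15 (log2 fold change -3.31) and KRT18 from 33.9 to 3.45 (-3.30). KRT19 rose from 3.0 to 9.4 (1.61) and GATA3 from 50.9 to 61.7 (0.28). Of 6 blood and endothelial markers, CD3E was at 0 in all 6 libraries, and the only one tested, PTPRC, was at 1.18, 1.56 and 0.700 CPM in DMSO and at 2.64, 3.24 and 3.59 CPM with AS1842856. PTPRC was called higher, by 1.48 on the log2 scale (SE 0.27, edgeR adjusted p = 4.99e-07), at these low levels. The summed level of the blood and endothelial list was at most 3.59 CPM in any library. The part of these marker changes in the rise of the 10 genes was not tested.

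Across 15 other settings per gene, the 9 genes other than DUSP5 kept their direction and stayed called. The settings were other scalings, filters, DESeq2, a replicate block, limma on FPKM and each library left out. DUSP5 kept its direction in all 15 and stayed called in 10.

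**Figure D4:**
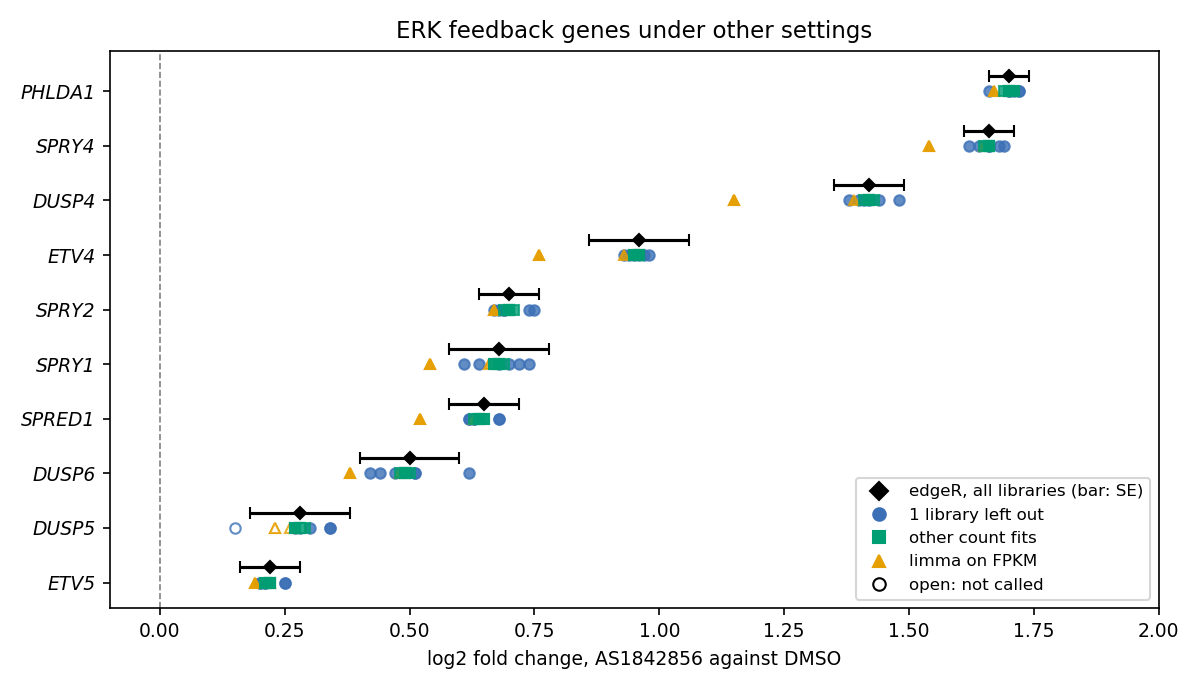
The log2 fold change of each of the 10 genes (horizontal axis) is given from edgeR with all libraries (black diamond with its SE), with 1 library left out (circles), from the other count fits (squares) and from limma on FPKM (triangles), with open symbols where the gene was not called. Values for PHLDA1, SPRY4 and DUSP4 stayed above 1, and the open symbols are all in the row of DUSP5.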

How the data were processed

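RNA-Seq counts of 6 BT549 libraries were used, grouped by the treatment in the sample labels. The authors deposited raw counts per gene, without normalization, and FPKM per library (scaled to gene length and depth). The study's text names STAR for mapping, and the submitters' processing notes list Bowtie 0.12.2 and CASAVA with GRCh38 (hg38); which made these files was not resolved. The counting tool is not given in the sources used here. All 58735 gene identifiers were found in GENCODE release 29.

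The main analysis of the counts used edgeR 4.0.16 under R 4.3.3: filterByExpr (minimum count 10, minimum total 15; 14338 genes, 99.9% of counts), TMM (factors 0.995 to 1.01), robust glmQLFit, glmQLFTest without a block, and Benjamini-Hochberg adjustment over all genes tested (threshold 0.05). The common biological coefficient of variation was 0.0374. Paralog ratios used log2(count + 0.5) and a two-sided exact permutation test. limma 3.58.1 on log2(FPKM + 1) and log2(FPKM + 0.1) and DESeq2 1.42.0 were alternatives, and the tests were run first on simulated data. The p-values set the difference between groups against the spread between these libraries of 1 cell line. Same-letter replicates did not deviate together, so the letters were not used as a block.

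The members and lists were chosen with earlier results of these data known. All 10 members and their paralogs were named, and of each list the 3 largest called rises and falls with a mean of at least 1 CPM. MAP2K1, MAP2K2, CIC, ERF, ELK1, EGR1, EGR3, FOS, FOSL1, EGFR, HBEGF, ERRFI1, VIM and CDH2 were named after their values were seen. Single values of some list genes are not reported here.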

Additional observations from a re-analysis of the deposited data

How the results depend on the processing

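DUSP5 was the one member whose call depended on the setting. Its log2 fold change was 0.28 in DESeq2 (adjusted p = 0.0754), 0.23 in limma on log2(FPKM + 1) (0.0533), 0.26 on log2(FPKM + 0.1) (0.051) and 0.23 with no filter (0.112), none of them called, and it ran from 0.15 to 0.34 with each library left out (0.15, adjusted p = 0.261, without AS1842856 replicate B). Between 6523 and 8030 genes were called with all libraries and between 7427 and 7678 with 1 left out. With limma on FPKM, 4, 4 and 5 receptor tyrosine kinases were called lower (log2(FPKM + 1), log2(FPKM + 0.1) and no filter) in place of 8, and with no filter 1 other feedback inhibitor was called higher in place of 2 (1 to 3 with 1 library left out; 1 without AS1842856 replicate C). SPRY3, not called, ran from -0.12 to 0.35 with 1 library left out (-0.12 without AS1842856 replicate A, -0.02 without DMSO replicate C). The ratio of SPRY1 to SPRY2, at -0.03, changed sign to 0.03 without DMSO replicate B and 0.06 without AS1842856 replicate C. LRIG3 (0.21), MKNK1 (0.20) and ELK4 (-0.18) were not called by limma on log2(FPKM + 1) with no filter. No setting moved the median of all genes by more than 0.016. The causes were not tested.

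Replicates that share a letter did not deviate together (r = 0.042, -0.012 and -0.00332 for A, B and C), and not every library correlated best with its own letter. With the letter as a replicate block 7862 genes were called, 10 of 10 members among them. Only genes named in the text were recomputed singly. Depth limits KSR2, EGR3 and DUSP9, which had few counts.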
